A study of Mus musculus with 8 samples.

Results

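The genes described here are the enzymes of glycolysis, the lactate dehydrogenases and lactate transporters, the kinases that control pyruvate dehydrogenase, and a set of hypoxia response genes, 34 in all, chosen by symbol from a table of 20943 genes. All 34 were in the table, none was listed at 0 in any tumor, and all 34 were tested with no filter on low values. They were measured by poly-A RNA sequencing in 8 malignant peripheral nerve sheath tumors of mice, which are sarcomas that arise from the Schwann cell lineage. The 3 PRC2 loss tumors came from mice with floxed Nf1, Cdkn2a and Eed alleles, and the 5 PRC2 wildtype tumors from mice with floxed Nf1 and Cdkn2a alleles only. In both groups the Plp-CreERT transgene, whose recombinase works in Schwann lineage cells once tamoxifen is given, deleted the floxed genes after 0.4 mg tamoxifen on day 0 to day 3 of life; age at collection and strain were not given in the sources used here. Nf1 restrains Ras, Cdkn2a encodes a pair of cell cycle inhibitors, and Eed encodes a subunit that Polycomb repressive complex 2 (PRC2) needs to methylate histone H3 on lysine 27. PRC2 loss tumors 2 and 3, labelled left and right sciatic nerve, share 1 animal code, as do wildtype tumors 1 and 2 and wildtype tumors 3 and 4. The p-values may therefore treat tumors of 1 mouse as independent. PRC2 loss tumor 1 is labelled right paraspinal nerve, so every PRC2 loss column names a nerve, while all 5 wildtype columns are labelled only as tumor. Site or kind of sample cannot be told apart from PRC2 status in any result below.

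Glycolysis splits glucose into pyruvate. Its upper part spends ATP to make triose phosphates, and its lower part, from triose phosphate isomerase to pyruvate kinase, yields ATP and NADH. Pyruvate is either reduced to lactate and exported, or enters mitochondria through pyruvate dehydrogenase, which the PDK kinases switch off. When oxygen is low, HIF factors, made of an oxygen-sensitive alpha and a stable beta subunit, bind hypoxia response elements and raise many of these genes, and tumors including sarcomas often run glycolysis at high rates.

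Values are the authors' quantile-normalized log2 gene counts, and differences are PRC2 loss minus PRC2 wildtype on that scale. Eed itself stood at 8.76, 8.93 and 8.96 in PRC2 loss tumors 1 to 3, against 10.32, 10.33, 10.17, 10.19 and 10.23 in wildtype tumors 1 to 5. The groups did not overlap (limma adjusted p = 0.000208), and each value covers the whole gene, not just its deleted part. Of other cell types, myelinating Schwann cell markers (12 of 12 higher in PRC2 loss), endothelial markers (11 of 12 higher) and erythroid markers (6 of 7 higher) moved one way, and macrophage markers (9 of 12 lower, 1 higher) and T and NK cell markers (8 of 10 lower) moved the other. All 10 proliferation markers were lower in PRC2 loss, with a median log2 difference of -3.72. Their summed level was 10.98 to 12.14 (log2) in PRC2 loss and 13.84 to 15.34 in wildtype. The part of proliferation or of these cell types in the member values below was not tested. Of neutrophil markers 7 of 10 were higher and 1 lower, of fibroblast markers 2 of 8 were higher, and none of 20 skeletal muscle or 10 adipocyte markers passed in either direction. Whether a lower value in bulk tumor RNA reflects fewer cells of a type or less RNA per cell cannot be told apart here. Skeletal muscle markers were high in wildtype tumors 1 and 2, with a mean log2 level of 11.64 and 11.08, against 3.83 to 5.34 in the other wildtype tumors; PRC2 loss tumors 1 to 3 stood at 4.14, 5.54 and 8.53. By Y-linked transcripts, PRC2 loss tumor 1 and wildtype tumor 5 were male and the other 6 female.

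Of the 34 genes, 11 (32.4%) fell and 5 (14.7%) rose in PRC2 loss tumors, against 19.7% lower and 16% higher among all 20803 genes tested; in either direction 16 members (47.1%) passed, against 35.7% of all genes (limma, Benjamini-Hochberg adjusted p below 0.05 over all genes). The share that rose was therefore close to that of all genes, and the share that fell was above it. The groups did not overlap for the same 16 members, against 38.4% of all genes (21.4% lower and 16.9% higher in PRC2 loss). The median log2 difference of the 34 was -0.22, against -0.12 for all genes, and the median size of the difference was 0.93, against 0.63. Scaling moved the balance: with each tumor centred on 15 housekeeping genes, of which 9 were themselves lower in PRC2 loss, the median of all genes shifted by 0.51, the median of the 34 became 0.28, and 6 members were higher and 7 lower, against 5 and 11 as deposited. Over all genes that centring gave 7239 higher and 1871 lower, against 3338 and 4090. With animal codes averaged 2122 of all genes were higher and 2121 lower. Counts below, of further lists or of parts of the 34, as deposited or in each setting, are to be read against these all-gene counts. Of the 16 members that passed, 12 passed under both scalings.

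**Figure D1:**
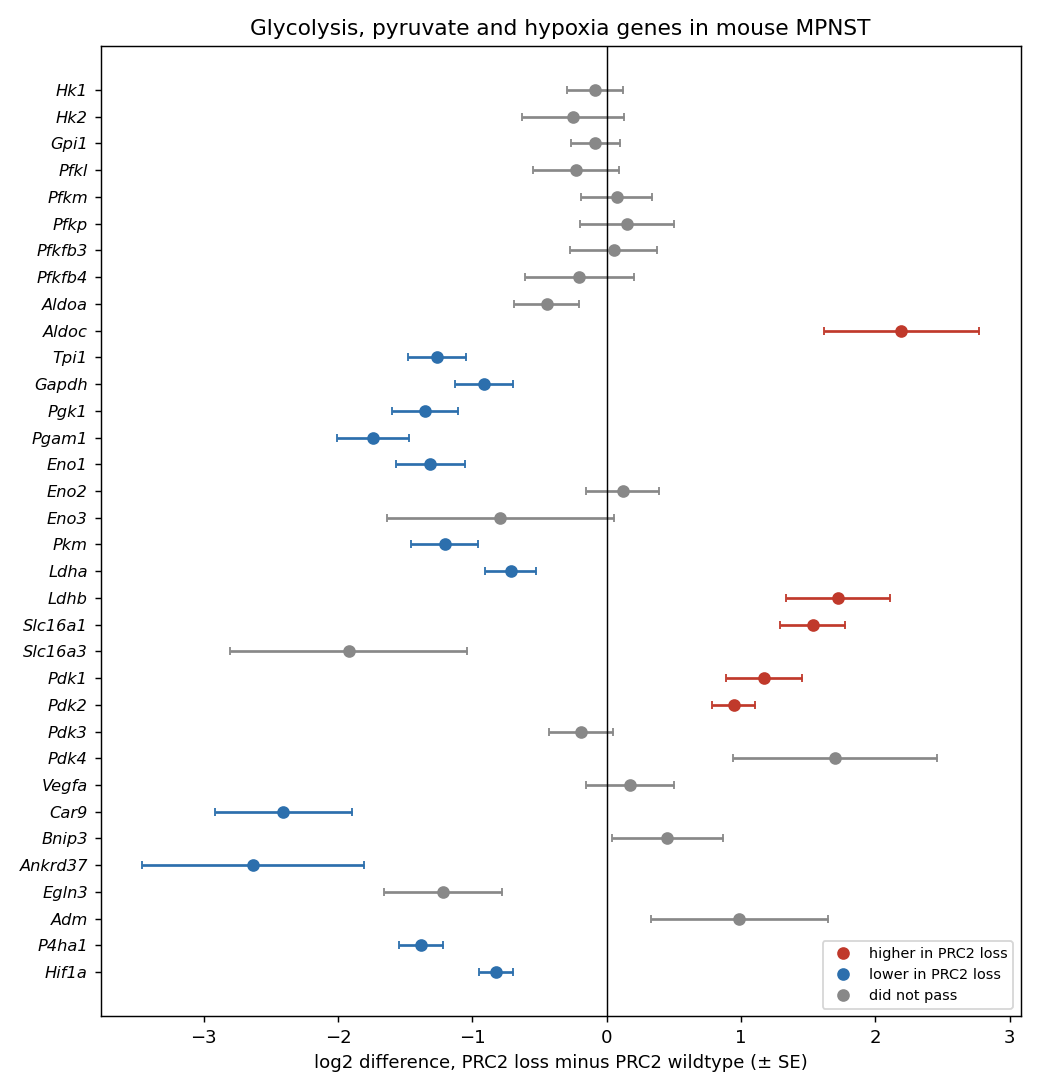
Log2 difference (PRC2 loss minus PRC2 wildtype, horizontal axis) of each of the 34 genes, ordered by role from hexokinase at the top to the HIF alpha subunit at the bottom; points are limma estimates from 3 PRC2 loss and 5 wildtype tumors and bars are SE, in red for genes higher and blue for genes lower in PRC2 loss past the threshold and in grey for the others. Genes from Tpi1 to Ldha lie left of 0 apart from Eno2, the Ldhb, Slc16a1, Pdk1 and Pdk2 points lie right of it, and the upper enzymes from Hk1 to Aldoa lie near 0.

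None of the 9 genes of the upper pathway before aldolase C passed the test, against 35.7% of all genes, and the groups overlapped for all 9. These were the hexokinases Hk1 and Hk2, which trap glucose as glucose 6-phosphate, the isomerase Gpi1, the phosphofructokinases Pfkl, Pfkm and Pfkp, which commit sugar to glycolysis, the enzymes Pfkfb3 and Pfkfb4, which set the level of their activator fructose 2,6-bisphosphate, and the main aldolase Aldoa. Their log2 differences ran from -0.45 for Aldoa to 0.15 for Pfkp (limma adjusted p from 0.178 to 0.912). Relative to housekeeping genes they ran from 0.05 for Aldoa to 0.65 for Pfkp, and again none passed (limma adjusted p from 0.111 to 0.898). Hk2 stood at 10.86, 10.21 and 9.12 in PRC2 loss tumors 1 to 3, against 10.28, 10.38, 10.30, 9.78 and 10.84 in wildtype tumors 1 to 5, so the PRC2 loss tumors held both the highest and the lowest value. With an SE of 0.377 on this difference of -0.25, a moderate change of Hk2 in either direction would not have been detectable. Gpi1, with an SE of 0.183, averaged 13.12 ± 0.35 (SD, n = 3) across PRC2 loss tumors and 13.21 ± 0.19 (SD, n = 5) across wildtype tumors.

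Most members of the lower pathway fell. The 7 genes Tpi1, Gapdh, Pgk1, Pgam1, Eno1, Pkm and Ldha, from triose phosphate isomerase to lactate dehydrogenase A, had all 3 PRC2 loss values below all 5 wildtype values. Their log2 differences ran from -0.72 to -1.74. Among all genes 21.4% separated in this direction. These 7 leave out isozymes of the same steps, described below: Eno2 (log2 difference 0.12) and Eno3 (-0.79) did not pass, and Ldhb (1.72) rose. Tpi1, which interconverts the triose phosphates, stood at 11.69, 11.95 and 12.32 in PRC2 loss tumors 1 to 3, against 13.29, 12.78, 13.13, 13.49 and 13.59 in wildtype tumors 1 to 5. The gene lies at chr6:124810586-124814296 on the minus strand (GRCm38, GENCODE M21). It was 2.41-fold lower in PRC2 loss (log2 difference -1.27, SE 0.216, limma adjusted p = 0.0031). Pgk1, the X-linked kinase that makes the first ATP of the lower pathway, stood at 11.79, 11.84 and 11.70 in PRC2 loss, against 13.14, 12.52, 12.91, 13.34 and 13.73 in wildtype. The PRC2 loss tumors lay close together and all 5 wildtype tumors lay above them, a 2.55-fold difference (limma adjusted p = 0.00406).

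Pgam1, the phosphoglycerate mutase, had the largest fall of the 7, at 3.34-fold. It stood at 11.34, 11.98 and 11.49 in PRC2 loss tumors 1 to 3, against 13.17, 12.75, 13.23, 13.68 and 13.87 in wildtype tumors 1 to 5 (log2 difference -1.74, SE 0.268, limma adjusted p = 0.00201). Eno1, the ubiquitous enolase, was 2.48-fold lower, at 12.59, 12.73 and 13.11 in PRC2 loss, against 14.18, 13.66, 13.69, 14.45 and 14.62 in wildtype (limma adjusted p = 0.00578). Pkm, the pyruvate kinase whose M1 and M2 forms a whole-gene value does not separate, stood at 13.30, 13.36 and 13.65 in PRC2 loss, against 14.61, 14.09, 14.42, 14.90 and 15.20 in wildtype. It was 2.31-fold lower (limma adjusted p = 0.0074). Among wildtype tumors the 7 genes kept a similar order: 6 were lowest in tumor 2 and 6 were highest in tumor 5.

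The smaller falls were those of Gapdh and Ldha. Gapdh, which oxidises glyceraldehyde 3-phosphate and is widely used as a reference gene, stood at 12.88, 13.03 and 13.45 in PRC2 loss tumors 1 to 3, against 14.15, 13.64, 13.78, 14.23 and 14.40 in wildtype tumors 1 to 5. It was 1.89-fold lower (limma adjusted p = 0.0121). Ldha, which turns pyruvate into lactate, was 1.64-fold lower, at 12.63, 13.05 and 12.67 in PRC2 loss, against 13.76, 13.39, 13.09, 13.51 and 13.75 in wildtype (limma adjusted p = 0.0194); PRC2 loss tumor 2 and wildtype tumor 3 nearly touched. Relative to housekeeping genes 5 of the 7 still fell, by 0.71 (Pkm) to 1.24 (Pgam1) on the log2 scale, while Gapdh at -0.42 and Ldha at -0.22 no longer passed (limma adjusted p = 0.151 and 0.396); leaving out PRC2 loss tumor 1 also ended both calls (0.0522 and 0.0721), and leaving out tumor 3 that of Ldha (0.0686). Reads of several of these genes can be shared with close copies: 82.5% of the 50-base stretches of the longest Gapdh transcript, 72.2% for Eno1, 68.0% for Pgk1, 41.5% for Pgam1, 34.4% for Pkm, 16.6% for Ldha and 7.51% for Tpi1 also occur in transcripts of another gene in GENCODE M21, and how such reads were counted is not given, so these values are uncertain. The copy Eno1b, with 70.5% of the Eno1 stretches, was lower too, at 8.22, 7.94 and 8.30 in PRC2 loss, against 9.82, 9.20, 9.67, 10.22 and 10.62 in wildtype (limma adjusted p = 0.00333). Its value may hold the same reads as Eno1, so it is not separate support.

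**Figure D2:**
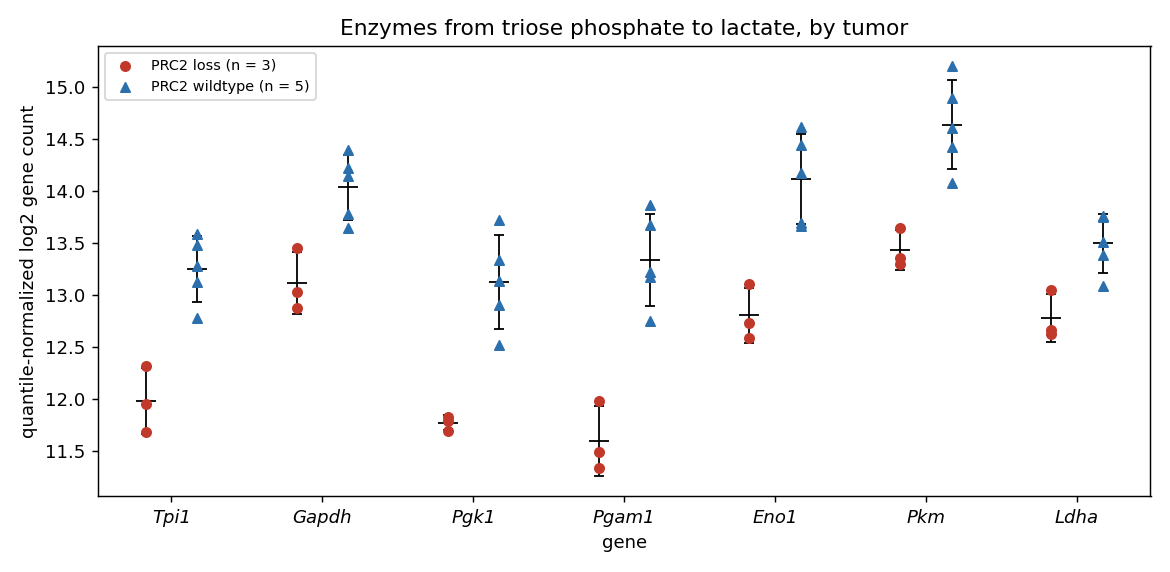
Quantile-normalized log2 gene counts (vertical axis) of the 7 enzymes from triose phosphate isomerase to lactate dehydrogenase A in each tumor; red circles are PRC2 loss tumors (n = 3), blue triangles PRC2 wildtype tumors (n = 5), and black bars the group mean ± SD. For every gene all red circles lie below all blue triangles, with the narrowest gap for Ldha (13.05 against 13.09).

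The hypoxia response element has the core ACGTG, or its variant GCGTG; read from the opposite strand the first becomes CACGT while the variant becomes CACGC. Both strands were searched in RefSeq promoter windows (GRCm38.p6, the assembly behind mm10) that run from 250 bases before to 50 after each annotated start. The core was in 31 of 34 members, against 46.7% of 27025 genes, and in 39 of 49 member windows (79.6%), against 43.8% of all 32851 windows of this length. The members were chosen as glycolysis and hypoxia genes, and the comparison was not matched for base content or windows per gene. No enrichment is read from it. The core was present in 10 of the 11 members that fell, in all 5 that rose and in 16 of the 18 that did not pass, so its presence did not separate them. The palindrome CACGTG, which contains the core on both strands and is also an E-box, was in 7 members. These were Ldha and Hif1a, which fell, Slc16a1 and Pdk2, which rose, and Pfkfb3, Bnip3 and Pfkm, which did not pass. It occurs in 7.15% of all windows. That is a rate per window, and the 34 members have 49 windows, so the count of members cannot be set against it. A match is only a match of letters. The 160 bases before the start are printed for 4 genes that fell and 2 that rose, because they show where cores lie in front of genes that moved in opposite directions. In the printed stretches of the 2 that rose every core is the variant GCGTG or its reverse CACGC. Those of the 4 that fell each hold ACGTG or its reverse. This difference in letters belongs to the printed bases only and was not tested. Pdk2, which also rose, has CACGTG at -126, and the Slc16a1 window holds a CACGTG outside the printed bases. The capitals mark the core or overlapping cores, and every stretch is printed as the plus strand of the genome, on which these 6 genes lie.
Ldha, chr7:46845644-46845803: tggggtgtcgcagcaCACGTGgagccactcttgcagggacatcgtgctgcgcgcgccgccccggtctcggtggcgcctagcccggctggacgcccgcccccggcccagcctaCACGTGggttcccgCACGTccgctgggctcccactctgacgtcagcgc
Pgk1, chrX:106186940-106187099: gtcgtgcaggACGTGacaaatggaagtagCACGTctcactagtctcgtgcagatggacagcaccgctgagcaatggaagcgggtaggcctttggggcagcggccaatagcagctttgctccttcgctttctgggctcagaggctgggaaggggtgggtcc
Pgam1, chr19:41911711-41911870: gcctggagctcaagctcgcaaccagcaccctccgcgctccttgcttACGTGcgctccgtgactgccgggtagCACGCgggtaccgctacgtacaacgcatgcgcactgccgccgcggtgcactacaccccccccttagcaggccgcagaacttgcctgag
P4ha1, chr10:59323136-59323295: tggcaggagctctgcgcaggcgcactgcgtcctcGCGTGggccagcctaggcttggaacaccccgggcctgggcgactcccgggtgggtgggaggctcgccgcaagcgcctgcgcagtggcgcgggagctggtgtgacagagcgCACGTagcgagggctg
Slc16a1, chr3:104638504-104638663: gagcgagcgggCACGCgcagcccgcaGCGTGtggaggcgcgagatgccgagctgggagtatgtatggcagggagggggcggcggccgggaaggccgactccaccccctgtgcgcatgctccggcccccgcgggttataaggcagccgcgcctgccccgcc
Pdk1, chr2:71873064-71873223: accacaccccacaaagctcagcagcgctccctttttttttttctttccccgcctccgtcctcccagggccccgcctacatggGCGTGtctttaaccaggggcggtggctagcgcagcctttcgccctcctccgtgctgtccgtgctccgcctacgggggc
Counted from the start, the Ldha cores begin at -145, -48 and -34 and those of Pgk1 at -150 and -131.

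Of the tissue-restricted isozymes of these steps, Aldoc rose and Eno2 and Eno3 did not pass. Aldoc, the brain-type aldolase, rose 4.58-fold, at 9.60, 7.93 and 8.55 in PRC2 loss tumors 1 to 3, against 6.66, 6.19, 5.23, 7.65 and 6.74 in wildtype tumors 1 to 5 (limma adjusted p = 0.0188). PRC2 loss tumor 1 was the highest and tumor 2 lay just above wildtype tumor 4; the call was lost without PRC2 loss tumor 1 (limma adjusted p = 0.0792) or tumor 3 (0.0544) and without wildtype tumors 1 and 2 (0.0504). Eno2, the neuronal enolase, averaged 10.21 ± 0.31 (SD, n = 3) across PRC2 loss tumors and 10.09 ± 0.46 (SD, n = 5) across wildtype tumors and did not pass (limma adjusted p = 0.755). Eno3, the muscle enolase, stood at 8.46, 8.83 and 9.78 in PRC2 loss, against 11.76, 11.29, 8.27, 8.77 and 8.98 in wildtype (limma adjusted p = 0.504). Its 2 high values are in wildtype tumors 1 and 2, the tumors with the highest skeletal muscle markers; without them the difference was 0.35 in place of -0.79 and did not pass either (limma adjusted p = 0.499). Without the same tumors all 7 genes from Tpi1 to Ldha were still lower.

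Among the lactate genes, Ldhb and Slc16a1 rose while Ldha fell. Ldhb, the subunit favoured in oxidative tissues, rose 3.30-fold, at 11.77, 11.64 and 11.81 in PRC2 loss tumors 1 to 3, against 9.79, 9.61, 10.14, 11.23 and 9.31 in wildtype tumors 1 to 5 (log2 difference 1.72, SE 0.385, limma adjusted p = 0.00982). The PRC2 loss tumors were close together and wildtype tumor 4 was the nearest to them; 27.0% of the 50-base stretches of Ldhb occur in another gene. Slc16a1, the lactate transporter MCT1, rose 2.90-fold, at 12.21, 12.58 and 11.58 in PRC2 loss, against 10.74, 10.19, 10.44, 10.71 and 10.87 in wildtype (log2 difference 1.53, SE 0.242, limma adjusted p = 0.0022). Slc16a3, the lactate exporter MCT4 of glycolytic cells, stood at 4.66, 7.39 and 6.85 in PRC2 loss, against 7.92, 8.02, 7.26, 7.32 and 10.59 in wildtype, and did not pass (log2 difference -1.92, SE 0.882, limma adjusted p = 0.124). PRC2 loss tumor 2 lay inside the wildtype range, and the log2 difference was -1.33 without wildtype tumor 5, -1.10 without PRC2 loss tumor 1 and -0.51 without both.

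Ratios within a tumor do not move when a whole tumor is rescaled, and 12 such ratios of paralogues were compared in an exact permutation test (two-sided, 56 splits), whose smallest possible p is 0.0179. In 5 of the 12 the groups did not overlap and that smallest p was reached, with 0.0429 after Benjamini-Hochberg adjustment over the 12. For single genes the groups did not overlap in 38.4% of all genes, and the share over other gene pairs was not computed. Each of the 5 pairs holds at least 1 member that passed alone, so these ratios are not separate support. Since levels of different genes are not corrected for length, only the difference between groups is read. The Ldhb/Ldha log2 ratio was -0.87, -1.41 and -0.86 in PRC2 loss tumors 1 to 3, against -3.97, -3.77, -2.95, -2.28 and -4.45 in wildtype tumors 1 to 5, a difference of 2.44. The Slc16a1/Slc16a3 log2 ratio was 7.55, 5.19 and 4.73 in PRC2 loss, against 2.82, 2.16, 3.18, 3.40 and 0.28 in wildtype, a difference of 3.45. Both shifts were in the same direction in every left-out-tumor setting, from 2.20 to 2.74 for the dehydrogenases and from 2.59 to 4.00 for the transporters. The other ratios whose groups did not overlap were Aldoc/Aldoa (difference 2.64), Eno2/Eno1 (1.43) and Pdk3/Pdk1 (-1.36). The hexokinase, phosphofructokinase, Pfkfb4/Pfkfb3, Eno3/Eno1, Pdk4/Pdk1 and Pdk2/Pdk1 ratios overlapped between groups (exact permutation p from 0.536 to 0.857).

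**Figure D3:**
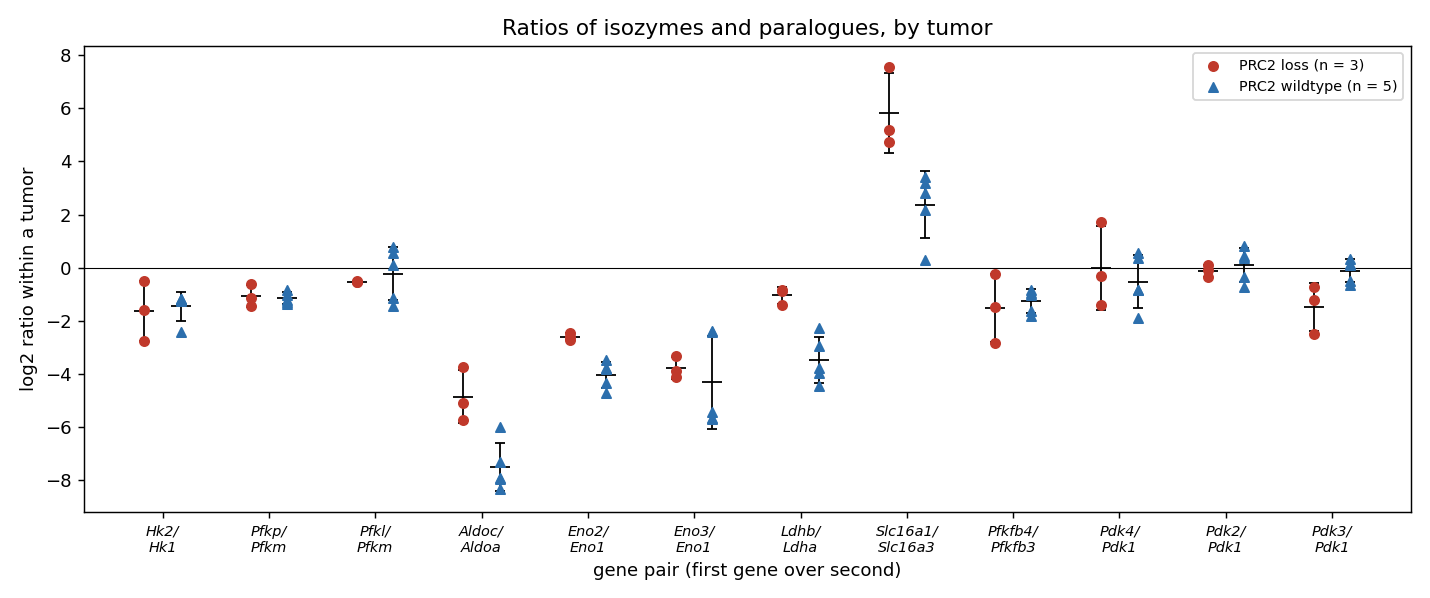
Log2 ratio of 2 paralogous genes within each tumor (vertical axis) for 12 gene pairs; red circles are PRC2 loss tumors (n = 3), blue triangles PRC2 wildtype tumors (n = 5), and black bars the group mean ± SD. The groups separate for Aldoc/Aldoa, Eno2/Eno1, Ldhb/Ldha, Slc16a1/Slc16a3 and Pdk3/Pdk1 and overlap for the other 7; heights of different pairs are not comparable, because gene length is not corrected for.

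Of the 4 pyruvate dehydrogenase kinases, 2 rose and none fell, against 16% higher and 19.7% lower among all genes. A list of 4 genes is too short to compare shares. Pdk1, a HIF target, rose 2.25-fold, at 10.62, 10.65 and 11.26 in PRC2 loss tumors 1 to 3, against 9.30, 9.44, 9.26, 10.12 and 10.24 in wildtype tumors 1 to 5 (log2 difference 1.17, SE 0.286, limma adjusted p = 0.014). Wildtype tumors 4 and 5 were the nearest to the PRC2 loss tumors, and leaving out PRC2 loss tumor 3 ended the call (limma adjusted p = 0.0615), as did averaging tumors of 1 animal code (0.067). Pdk2, the widely expressed kinase, rose 1.93-fold, at 10.53, 10.75 and 10.90 in PRC2 loss, against 10.13, 9.80, 9.71, 9.78 and 9.50 in wildtype (SE 0.162, limma adjusted p = 0.00318). Pdk4, a starvation- and fat-responsive kinase, ranged from 9.25 to 12.33 in PRC2 loss, against 8.22 to 10.62 in wildtype (log2 difference 1.70, SE 0.759, limma adjusted p = 0.115). It passed in 2 of 24 alternatives, with housekeeping centring (limma adjusted p = 0.0478) and without PRC2 loss tumor 2 (0.0423). Without PRC2 loss tumor 1, its highest, the log2 difference was 0.96 (limma adjusted p = 0.39), and with array weights 0.88 (0.366). X-linked Pdk3 averaged 9.37 ± 0.57 (SD, n = 3) across PRC2 loss tumors and 9.56 ± 0.12 (SD, n = 5) across wildtype tumors and did not pass (limma adjusted p = 0.573).

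The hypoxia genes did not move as a block. Of 7 response genes, too few to compare shares, 3 fell and none rose, against 19.7% lower and 16% higher among all genes. Hif1a, the oxygen-sensitive HIF-1 alpha subunit, fell as well. Hif1a stood at 11.97, 11.64 and 11.60 in PRC2 loss tumors 1 to 3, against 12.40, 12.57, 12.61, 12.48 and 12.74 in wildtype tumors 1 to 5, and was 1.77-fold lower (log2 difference -0.82, SE 0.130, limma adjusted p = 0.0022). The values of each group were close together, but relative to housekeeping genes the difference was -0.33 and did not pass (limma adjusted p = 0.119). HIF-1 alpha is controlled mainly by protein breakdown, which RNA does not show.

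P4ha1, a collagen prolyl hydroxylase subunit induced by hypoxia, stood at 10.99, 11.11 and 10.94 in PRC2 loss tumors 1 to 3, against 12.52, 12.40, 11.92, 12.53 and 12.59 in wildtype tumors 1 to 5. It was 2.61-fold lower (log2 difference -1.38, SE 0.164, limma adjusted p = 0.000732), had no 50-base stretch in common with another gene and was lower past the threshold in all 24 alternatives. Car9, the carbonic anhydrase used as a hypoxia marker, was 5.30-fold lower but low throughout, at 3.24, 4.02 and 3.42 in PRC2 loss, against 5.42, 6.19, 5.08, 6.75 and 6.40 in wildtype (limma adjusted p = 0.00794); with a pseudocount of 16 its log2 difference was -1.51 in place of -2.41. Ankrd37, an ankyrin repeat gene induced by HIF-1, was 6.20-fold lower, at 2.76, 3.51 and 4.15 in PRC2 loss, against 4.64, 5.16, 5.80, 6.75 and 8.20 in wildtype (limma adjusted p = 0.037). Ankrd37 lost its call in 10 of the 23 alternatives that tested it, among them each fit that left out a PRC2 loss tumor (limma adjusted p = 0.124, 0.0948 and 0.062 without tumors 1, 2 and 3), those without wildtype tumor 3 (0.0595) or 4 (0.0737), housekeeping centring (0.0629), animal codes averaged (0.0985) and a pseudocount of 16 (log2 difference -1.70, 0.0728).

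The other 4 response genes did not pass. Vegfa, the main angiogenic growth factor, stood at 11.37, 11.26 and 11.94 in PRC2 loss tumors 1 to 3, against 11.42, 12.12, 11.06, 10.58 and 11.59 in wildtype tumors 1 to 5 (limma adjusted p = 0.706). The mitophagy receptor gene Bnip3 averaged 10.64 ± 0.57 (SD, n = 3) across PRC2 loss tumors and 10.19 ± 0.69 (SD, n = 5) across wildtype tumors (limma adjusted p = 0.432), and 62.4% of its 50-base stretches are shared with other genes. The vasodilator peptide gene Adm averaged 8.84 ± 1.19 (SD, n = 3) across PRC2 loss tumors and 7.85 ± 0.96 (SD, n = 5) across wildtype tumors (limma adjusted p = 0.281); without PRC2 loss tumor 2 the log2 difference was 1.60 in place of 0.99. Egln3, a prolyl hydroxylase that marks HIF alpha subunits for breakdown and is itself a HIF target, stood at 6.87, 7.06 and 7.96 in PRC2 loss, against 8.01, 7.92, 8.93, 8.17 and 9.54 in wildtype. Its groups touched at PRC2 loss tumor 3 and wildtype tumor 2 (log2 difference -1.22, SE 0.439, limma adjusted p = 0.0603), and it passed in 4 of the 23 alternatives that tested it, among them without wildtype tumor 2 (0.0463) and without wildtype tumors 1 and 2 (0.0312).

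Among 12 further genes of the HIF pathway 5 were higher and 1 lower. The alpha subunits on this list, Epas1 and Hif3a, both rose. The member Hif1a fell as deposited but did not pass with housekeeping centring (log2 difference -0.33, limma adjusted p = 0.119). With animal codes averaged 3 of the 12 were higher and 1 lower, and with housekeeping centring 7 and 1. Over all genes these settings gave 2122 higher and 2121 lower, and 7239 and 1871. Epas1, which encodes HIF-2 alpha and is prominent in endothelium, stood at 13.39, 13.28 and 14.43 in PRC2 loss tumors 1 to 3, against 11.73, 11.91, 11.23, 10.63 and 10.48 in wildtype tumors 1 to 5 (5.67-fold higher, limma adjusted p = 0.00236). Hif3a, an alpha subunit with inhibitory forms, stood at 12.71, 12.16 and 12.27 in PRC2 loss, against 3.44, 6.19, 7.68, 7.81 and 7.90 in wildtype (54.8-fold higher, limma adjusted p = 0.00292); without wildtype tumor 1, the lowest, it was 31.7-fold higher. Arnt2, a beta subunit best known in the nervous system, was 5.99-fold higher (limma adjusted p = 0.00116), and Egln1 and Crebbp, named after their values were seen, were 1.33-fold and 1.45-fold higher. The ubiquitin ligase gene Siah2 was 2.29-fold lower (limma adjusted p = 0.00218). The summed level of the 12 endothelial markers was 15.49 to 16.38 (log2) in PRC2 loss and 13.54 to 14.30 in wildtype, with none at 0; the part of endothelial content in the Epas1 value was not tested.

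Of 36 further hypoxia response genes 10 rose and 4 fell, a median log2 difference of 0.15. With housekeeping centring 13 were higher and 3 lower (median 0.64), and with animal codes averaged 5 were higher and 3 lower. Over all genes these settings gave 7239 higher and 1871 lower, and 2122 and 2121. The shares of the list under the centring were thus close to those of all genes. Ndrg1, which hypoxia induces and which myelinating Schwann cells express strongly, stood at 14.76, 14.64 and 14.76 in PRC2 loss tumors 1 to 3, against 11.64, 12.29, 10.63, 10.48 and 11.47 in wildtype tumors 1 to 5 (10.7-fold higher, limma adjusted p = 0.000609). Ddit4, an mTORC1 inhibitor that hypoxia and glucocorticoids induce, stood at 14.00, 13.76 and 13.79 in PRC2 loss, against 9.84, 10.20, 10.26, 10.78 and 11.23 in wildtype (10.5-fold higher, limma adjusted p = 0.000209). In the other direction, Plod2, a collagen lysyl hydroxylase, was 4.39-fold lower (limma adjusted p = 0.000752). Sap30 at 2.52-fold and Mif at 3.00-fold lower also fell and are named after their values were seen. The summed level of the 12 myelin markers was 17.50 to 18.37 (log2) in PRC2 loss and 12.29 to 14.07 in wildtype, with none at 0 in PRC2 loss and at most 1 at 0 in a wildtype tumor; its part in the Ndrg1 value was not tested.

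**Figure D4:**
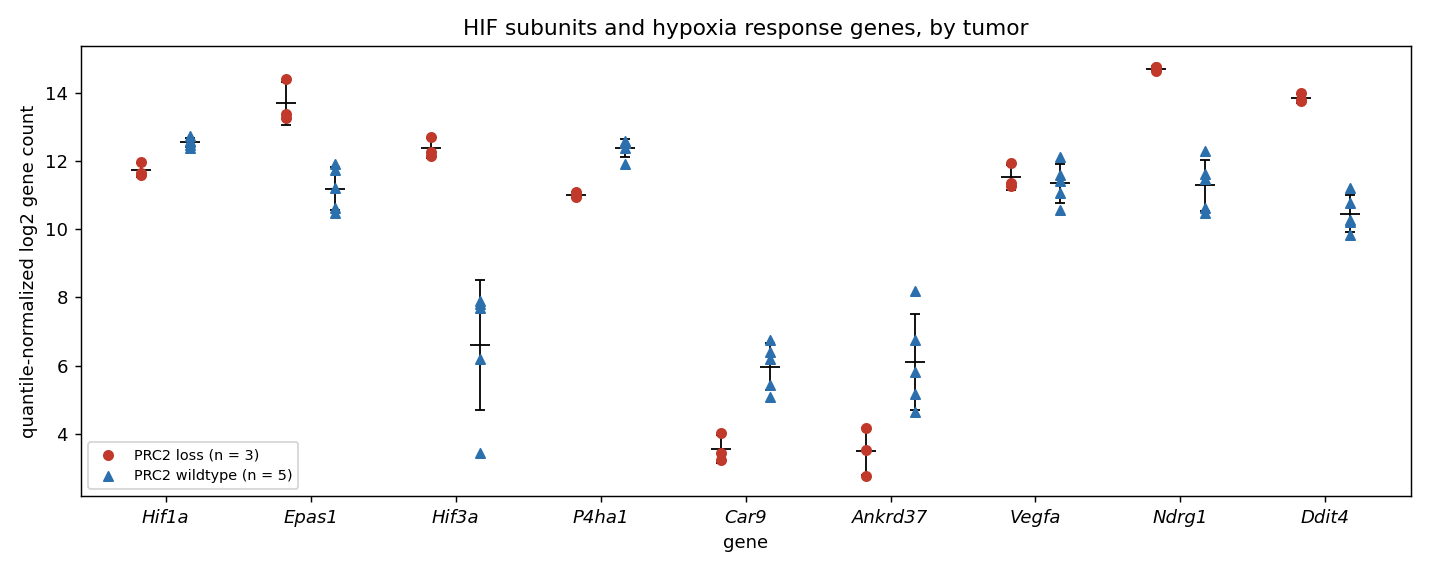
Quantile-normalized log2 gene counts (vertical axis) of the HIF alpha subunits Hif1a, Epas1 and Hif3a and of 6 hypoxia response genes in each tumor; red circles are PRC2 loss tumors (n = 3), blue triangles PRC2 wildtype tumors (n = 5), and black bars the group mean ± SD. Hif1a, P4ha1, Car9 and Ankrd37 lie lower and Epas1, Hif3a, Ndrg1 and Ddit4 higher in PRC2 loss tumors, while the groups overlap for Vegfa.

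Upstream of glycolysis, 3 of 11 glucose transport and hexose entry genes were higher and 2 lower. With housekeeping centring 6 were higher and none lower, where all genes gave 7239 higher and 1871 lower. Of 6 Slc2a transporter genes on the list 3 rose. Slc2a1 (GLUT1) stood at 11.67, 12.00 and 12.31 in PRC2 loss tumors 1 to 3, against 9.46, 10.13, 10.19, 10.29 and 11.51 in wildtype tumors 1 to 5 (3.20-fold, limma adjusted p = 0.0126). Slc2a3 (GLUT3) was 4.36-fold and Slc2a8 1.76-fold higher (limma adjusted p = 0.00534 and 0.0297). The phosphoglucomutase family gene Pgm2 was 2.49-fold lower, as was the leukocyte hexokinase gene Hk3, named after its values were seen, at 2.64-fold (limma adjusted p = 0.0299). Leaving out PRC2 loss tumor 3 ended the Slc2a1 call (limma adjusted p = 0.0562), as did averaging animal codes (0.12), where 1 gene of the list was higher and none lower. Pgm2 missed the threshold without PRC2 loss tumor 3 (0.0511) and with housekeeping centring (0.0591), and Slc2a8 did so without PRC2 loss tumor 2 or 3 or wildtype tumor 1 or 5 (0.0586 to 0.111). Slc2a1 is also abundant in endothelium and red cells, whose markers were higher as given above; their part was not tested.

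Downstream, the list of pyruvate entry held 1 fall among 11 genes, but with housekeeping centring 4 were higher and none lower, and with animal codes averaged none passed. Over all genes that centring gave 7239 higher and 1871 lower, so the share of the 11 that was higher under it was close to that of all genes. Pdha1 and Dld, subunits of pyruvate dehydrogenase, did not pass (limma adjusted p = 0.498 and 0.381), although Pdha1 was higher with housekeeping centring (log2 difference 0.62, limma adjusted p = 0.00967), and Dlat, another subunit named after its values were seen, was 1.49-fold lower (limma adjusted p = 0.0139). Of 17 citric acid cycle genes 6 fell and none rose, among them Idh3a at 1.60-fold, Suclg2 at 2.59-fold and citrate synthase (Cs) at 1.92-fold lower (limma adjusted p = 0.00219, 0.00481 and 0.0147). Their direction rested on the scaling, since housekeeping centring left 1 of the 17 lower and made 4 higher, and averaging animal codes left 3 lower. Of the 3 named, Suclg2 passed in both settings (it was lower in all 24 alternatives). Idh3a missed the threshold with the centring (limma adjusted p = 0.277) but not with animal codes averaged, and Cs missed it in both (0.113 and 0.0599). Leaving out PRC2 loss tumor 2 ended the Cs call as well (limma adjusted p = 0.0517).

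The side branches are the pentose phosphate pathway, which makes NADPH and ribose, and glycogen metabolism. Of 8 pentose phosphate genes 3 fell and 1 rose: G6pdx, the entry enzyme, was 1.57-fold, Rpe 1.55-fold and Pgd 1.43-fold lower, and H6pd, the endoplasmic reticulum enzyme, 2.23-fold higher (limma adjusted p = 0.00557, 0.00613, 0.0138 and 0.00117). With housekeeping centring H6pd was still higher and none of the list was lower, and with animal codes averaged 1 was higher and 1 lower. Of 13 gluconeogenesis and glycogen genes, the glycogen phosphorylase gene Pygl was 2.99-fold higher and the glycogen synthase gene Gys1 1.66-fold lower (limma adjusted p = 0.00434 and 0.0356). With housekeeping centring 5 genes of that list were higher and none lower, where all genes gave 7239 higher and 1871 lower. The Gys1 call was lost in 12 of 24 alternatives, among them housekeeping centring (0.459) and fits without wildtype tumor 1, 3, 4 or 5 or PRC2 loss tumor 1 or 2 (0.0528 to 0.0834). Of 11 other glycolysis genes 2 rose and 2 fell, with animal codes averaged 1 and 1. Pklr, the liver and red cell pyruvate kinase, was listed at 2.04, 4.45 and 2.73 in PRC2 loss tumors 1 to 3 and at 0 in all 5 wildtype tumors, beside the higher erythroid markers, whose part was not tested. Pfkfb2 was 1.69-fold higher, and Minpp1 2.07-fold and Ldhal6b 2.91-fold lower (limma adjusted p = 0.0152, 0.00331 and 0.0292); without PRC2 loss tumor 1 Pfkfb2 missed the threshold (0.061), and Ldhal6b did so without any 1 of the PRC2 loss tumors (0.053 to 0.0871) or without wildtype tumor 5 (0.053), and with a pseudocount of 16 its log2 difference was -0.77.

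**Figure D5:**
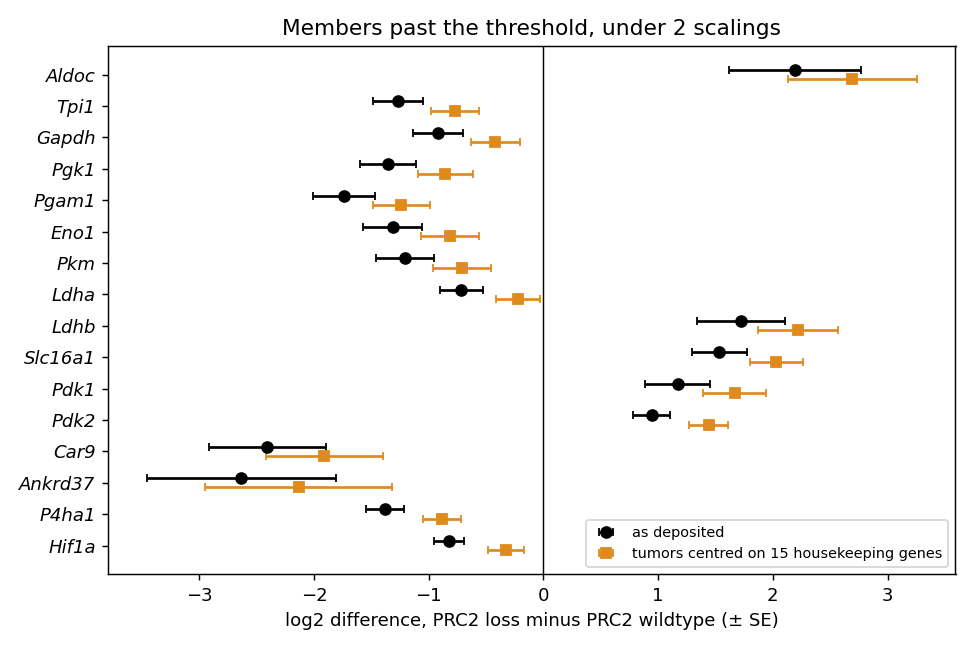
Log2 difference (PRC2 loss minus PRC2 wildtype, horizontal axis) of the 16 members that passed the test, as deposited (black circles) and after centring each tumor on 15 housekeeping genes (orange squares); bars are SE from limma over 3 PRC2 loss and 5 wildtype tumors. Centring moves every gene to the right; Gapdh, Ldha and Hif1a then lie within 0.42 of 0.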

How the data were processed

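Poly-A RNA from 3 PRC2 loss and 5 PRC2 wildtype mouse tumors was sequenced. What the authors deposited is a single table whose values are log2 gene counts after quantile normalization; the submitters' processing notes name Trim Galore, STAR 2.6, Partek 7.0 and the build mm10, and the counting method, strand use, annotation and log offset were not given in the sources used here. Quantile normalization gives the tumors nearly 1 distribution, so depth is unknown and no counting interval is given; 1822 to 2113 genes were at 0 in PRC2 loss tumors and 2686 to 3372 in wildtype tumors. A fold is 2 to the power of a log2 difference and understates changes of low genes. Columns were matched to tumors by description; no 2 columns were identical (highest Pearson correlation across genes 0.984). After 140 constant genes were left out, 20803 were fitted with limma 3.58.1 (R 4.3.3), two-sided and without covariates, the variance prior following mean level, and tested on simulated data. Gene positions and shared 50-base stretches came from GENCODE M21 and promoters from RefSeq. The members and lists were chosen with earlier results of these data known. All 34 members are named; of each further list, up to 4 genes past the threshold by smallest p, or where fewer than 2 passed the 2 with the highest mean. Some genes that this rule names are not reported here. Alternatives were low-value filters, pseudocounts of 1 and 16, other variance priors, array weights, 2 centrings, animal code averaged or as a block, replicate number, muscle and sex covariates, and each tumor left out.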

Additional observations from a re-analysis of the deposited data

Results flagged for a closer look

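Slc16a3, the lactate exporter gene, stood at 10.59 in wildtype tumor 5, while the next highest wildtype tumor was at 8.02; the gap is 0.77 of the range of the 5 tumors, above Dixon's critical value of 0.71. Such a gap is expected by chance in about 5% of groups, and it was found in 1 of the 34 genes tested this way in wildtype tumors. Without that tumor the Slc16a3 log2 difference was -1.33 (SE 0.652, limma adjusted p = 0.16), against -1.92 with it.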

How the results depend on the processing

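Over 24 alternatives no member that passed the test changed direction. Leaving out each tumor in turn gave 3 to 6 members higher and 8 to 12 lower, the lowest count of higher members being without PRC2 loss tumor 3, against 5 and 11 with all tumors. Housekeeping centring left 7 lower. The replicate block, in which tumors with the same number are paired and wildtype tumors 4 and 5 add nothing, left 2 higher and 1 lower (Ldhb, Pdk1 and P4ha1). Deviations of same-numbered tumors correlated at -0.155, 0.0945 and -0.0482, and 1 of the 3 PRC2 loss tumors correlated best with its own number. The labels give only the number, and so few pairs cannot decide whether same-numbered tumors share anything else. Leaving out the male tumors, added after seeing the data, left 3 higher and 7 lower, from 1 animal code in PRC2 loss; Aldoc, Ldhb, Gapdh, Ldha, Car9 and Ankrd37 then missed the threshold. The cause of these changes was not tested. With wildtype tumors 1 and 2 left out, also added, 4 were higher and 12 lower. For the isozyme ratios, animal codes averaged and left-out tumors leave too few splits for a test, so only values were compared. Depth is unknown, so low genes such as Car9 and Ankrd37 carry an unstated counting error.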
